A study of Mus musculus with 15 samples.

Results

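Nearly every protein of a mitochondrion is made in the cytosol and has to be threaded through the organelle's membranes, and the genes whose symbols start with Timm or Tomm encode most of the machines that do so. These genes were taken by that start of the symbol from the first column of the deposited tables, which gave 25 of 23393 genes (15 Timm and 10 Tomm symbols), the same ones in each of the 3 tables. The TOM complex of the outer membrane receives almost all precursors, the TIM23 complex of the inner membrane carries those with a cleavable presequence towards the matrix with the help of an ATP-driven motor, the TIM22 complex inserts metabolite carriers, and the small TIM proteins escort hydrophobic precursors through the space between the membranes. Kidney tubules, above all those of the proximal segment and the thick ascending limb, are rich in mitochondria and depend on them for transport. Timmdc1 is set apart here, since it encodes an assembly factor of respiratory complex I.

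Kidneys of C57BL/6 mice were compared by polyadenylated RNA sequencing. Knockout animals carried ERRg fl/fl with the Sim1-Cre transgene, and controls were littermates with ERRg fl/fl and no Cre, so that all animals shared the floxed alleles of Esrrg, the gene of the nuclear receptor ERRγ. Deletion follows the cells in which Sim1-Cre has acted, and the kidney cells that escape it are not given in the labels. There were 3 knockout and 2 control males at 3 weeks of age, 2 knockout and 2 control females at 3 weeks, and 3 knockout and 3 control males at 3 months, 15 kidneys in all.

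The values were the authors' own DESeq2 comparisons of knockout with control, 1 per age and sex, and no value per kidney was used, so every error below is the standard error of the authors' deposited table. The steps in which the lowest mean counts moved fitted 4, 4 and 5 libraries in 3-week males, 3-week females and 3-month males, where the labels have 5, 4 and 6. By the sign of their fold changes, the steps were 2 positive and 2 negative in both 3-week tables, and 2 and 3 at 3 months. In 3-week females this matches the labelled number of each genotype. Which kidneys entered the tables of males is therefore not known. In every table the p-values measure only the spread between the kidneys that entered it. Summed mean counts were 47478811 in 3-week males, 33861809 in 3-week females and 18805533 in 3-month males, so the 3-month values rest on the lowest depth. The headers do not say which genotype is on top of the ratio. It was read as knockout over control because the title of the series gives the receptor a coordinating role in mitochondrial and reabsorptive programs, and many such genes have negative values; a negative median of mitochondrial genes is thus part of the reading and no evidence for it, and if the ratio were turned, higher and lower would change places throughout. Esrrg itself does not settle this, with 0.82 ± 0.20, 1.04 ± 0.17 and -0.87 ± 0.57 (log2 fold change ± SE, the last without a p-value) in the authors' deposited table for 3-week males, 3-week females and 3-month males. Read as knockout over control, the targeted gene was thus called higher in both 3-week comparisons (adjusted p = 0.000613 in males and 1.7e-08 in females, DESeq2). The deleted exons are not given, and reads outside them would still be counted. Why Esrrg had positive values at 3 weeks was not tested. The source names of the 3 knockout males at 3 months say female where their titles and sex labels say male. In the authors' deposited table of that age Xist, which is expressed from the inactive X chromosome of females, had a mean count of 11.9 and the Y-linked Ddx3y one of 1477, against 23848 and 0.831 in the table of females, which goes with the sex labels. These means pool both genotypes. At 3 months the Y-linked Ddx3y, Uty and Kdm5d were lower in knockout kidneys, at log2 fold changes of -0.65, -0.59 and -0.42 (adjusted p from 1.75e-09 to 0.0211, DESeq2). Of all genes 27.8% were lower at that age. Xist, at 0.92 ± 0.65, and the Y-linked Eif2s3y, at -0.31 ± 0.20, did not pass. Of the markers of proximal tubule, thick ascending limb, distal and collecting duct cells none was at 0 in any table.

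Promoter sequence was available from RefSeq for 22 of the 25 genes (not for Timm21, Tomm40l and Tomm7), as windows of 250 bases before to 50 bases after the start of transcription on GRCm38.p6. ERR receptors bind the site TCAAGGTCA, whose core is AAGGTCA, and the element of NRF1, a regulator of many mitochondrial genes, is a GC-rich palindrome searched here by a fixed pattern with 1 free base. Both strands were searched, and the core was added to the search after the values had been seen. The full ERR site was in the window of 1 of the 22 genes, Timm8b, against 0.466% of all 27025 genes with a window, and with any base at its second position (TNAAGGTCA) it was again in Timm8b alone, against 1.43%. The core, which lies inside the full site, was in 3 of them, Timm8b, Timm23 and Timm44, against 5.38% of all genes, and the NRF1 site in 2, Timm8b and Tomm20, against 5.19%. Of these 4 genes, Timm8b passed no test in any table and the other 3 were lower in knockout kidneys at 3 months, when 27.8% of all genes were, so nothing is read from this count. Tomm20 lost its call when centred on genes of like mean count (adjusted p = 0.101, from the DESeq2 estimates). The windows of the 3 genes with the core are shown with that of Timm17a, the one gene of the family called in every comparison, which has none of these motifs. Each is given 5′ to 3′ on the gene's strand up to base 30 after the start, with motif matches in capitals. They lie at chr1:135313708-135313987 (minus strand), chr9:50603651-50603930 (plus strand), chr14:32201862-32202141 (minus strand) and chr8:4275876-4276155 (minus strand).
Timm17a: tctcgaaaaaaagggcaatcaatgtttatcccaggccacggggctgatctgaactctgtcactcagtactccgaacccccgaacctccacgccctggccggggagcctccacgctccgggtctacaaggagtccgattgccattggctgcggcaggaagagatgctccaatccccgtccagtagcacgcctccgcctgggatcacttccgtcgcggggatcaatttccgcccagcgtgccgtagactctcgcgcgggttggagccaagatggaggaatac
Timm8b: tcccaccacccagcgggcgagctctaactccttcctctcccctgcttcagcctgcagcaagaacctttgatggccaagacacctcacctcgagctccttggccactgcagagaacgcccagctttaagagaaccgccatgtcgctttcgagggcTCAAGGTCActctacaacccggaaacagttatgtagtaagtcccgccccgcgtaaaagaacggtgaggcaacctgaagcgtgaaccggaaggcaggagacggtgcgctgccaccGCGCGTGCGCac
Timm23: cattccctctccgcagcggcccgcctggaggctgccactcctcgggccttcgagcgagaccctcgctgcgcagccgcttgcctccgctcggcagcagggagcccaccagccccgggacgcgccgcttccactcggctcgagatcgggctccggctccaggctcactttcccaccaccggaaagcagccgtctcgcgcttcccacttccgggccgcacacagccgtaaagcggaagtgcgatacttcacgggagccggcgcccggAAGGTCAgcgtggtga
Timm44: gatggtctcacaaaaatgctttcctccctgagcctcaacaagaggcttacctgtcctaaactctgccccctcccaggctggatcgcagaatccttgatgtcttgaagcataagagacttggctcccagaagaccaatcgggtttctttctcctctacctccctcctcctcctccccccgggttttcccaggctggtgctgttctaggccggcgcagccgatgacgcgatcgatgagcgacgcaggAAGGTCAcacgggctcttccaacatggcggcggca
In Timm8b the full ERR site starts 96 bases before the start of transcription and the NRF1 site at base 19 after it. The core starts 5 bases before it in Timm44 and at base 15 in Timm23. A match of letters describes the window and does not show binding, and a window without a match says nothing of sites elsewhere.

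Levels ranged widely among the members of the family. Per kilobase of merged exons (GENCODE M21), mean normalized counts derived from the authors' deposited table of 3-week males were highest for Timm8b, at 7329, followed by Tomm6 at 3768, Timm13 at 3338, Tomm7 at 3212 and Tomm22 at 2699. The most abundant members by this scale thus encode small subunits and chaperones and the central TOM receptor. The channel subunit Tomm40 stood at 668 per kilobase, the TIM23 channel genes Timm17b, Timm17a and Timm23 at 620, 558 and 433, and the carrier pore Timm22 at 589. In the same unit Timm8a1 was the lowest member that entered a test, at 182, and its relative Timm8a2 was at 2.26. Tomm20l, a relative of the receptor gene Tomm20, had a mean count of 0 in all 3 of the authors' deposited tables. Timm8a2 and Tomm20l fell under the authors' limit on low counts and had no adjusted p, which leaves 23 tested members in each table. Exon annotation sets these levels, and genes with long alternative exons appear lower. The exons of Timm8b share 81 bases with Nkapd1 on the other strand.

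Few members were called at 3 weeks, all of them lower in knockout kidneys, and at 3 months more were lower and a few were higher. By the authors' adjusted p under 0.05 (DESeq2 with Benjamini-Hochberg adjustment over all tested genes), 2 of 23 members were lower and none higher in 3-week knockout males, or 8.70%, where 8.52% of all 14657 tested genes were lower and 8.81% higher (17.3% called). In 3-week females 4 of 23 were lower and none higher, against 10.4% lower and 8.29% higher of 14146 genes (18.7% called). In 3-month males 9 of 23 were lower and 2 higher, or 39.1% and 8.70%, against 27.8% lower and 29.8% higher of 12828 genes (57.5% called). In 3-week males the share of members called lower was thus near that of all genes, and none was called higher. At 3 months more than every second gene was called, so that the bare number of calls says little there. The median log2 fold change of the members was -0.29 in 3-week males, -0.18 in 3-week females and -0.42 in 3-month males, where all tested genes had medians of -0.01, 0.01 and 0.01. Values below 0 were found for 21, 21 and 19 of the 23 members in the same order, and 17 of 23 were below 0 in all 3 tables, against 27.4% of the 11928 genes tested in all 3. Only Timm17a was lower in each of the 3 comparisons, a property of 3.76% of those genes, and 10 members passed the test in none. In whole kidney, fewer cells of a type and less RNA per cell cannot be told apart.

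**Figure D1:**
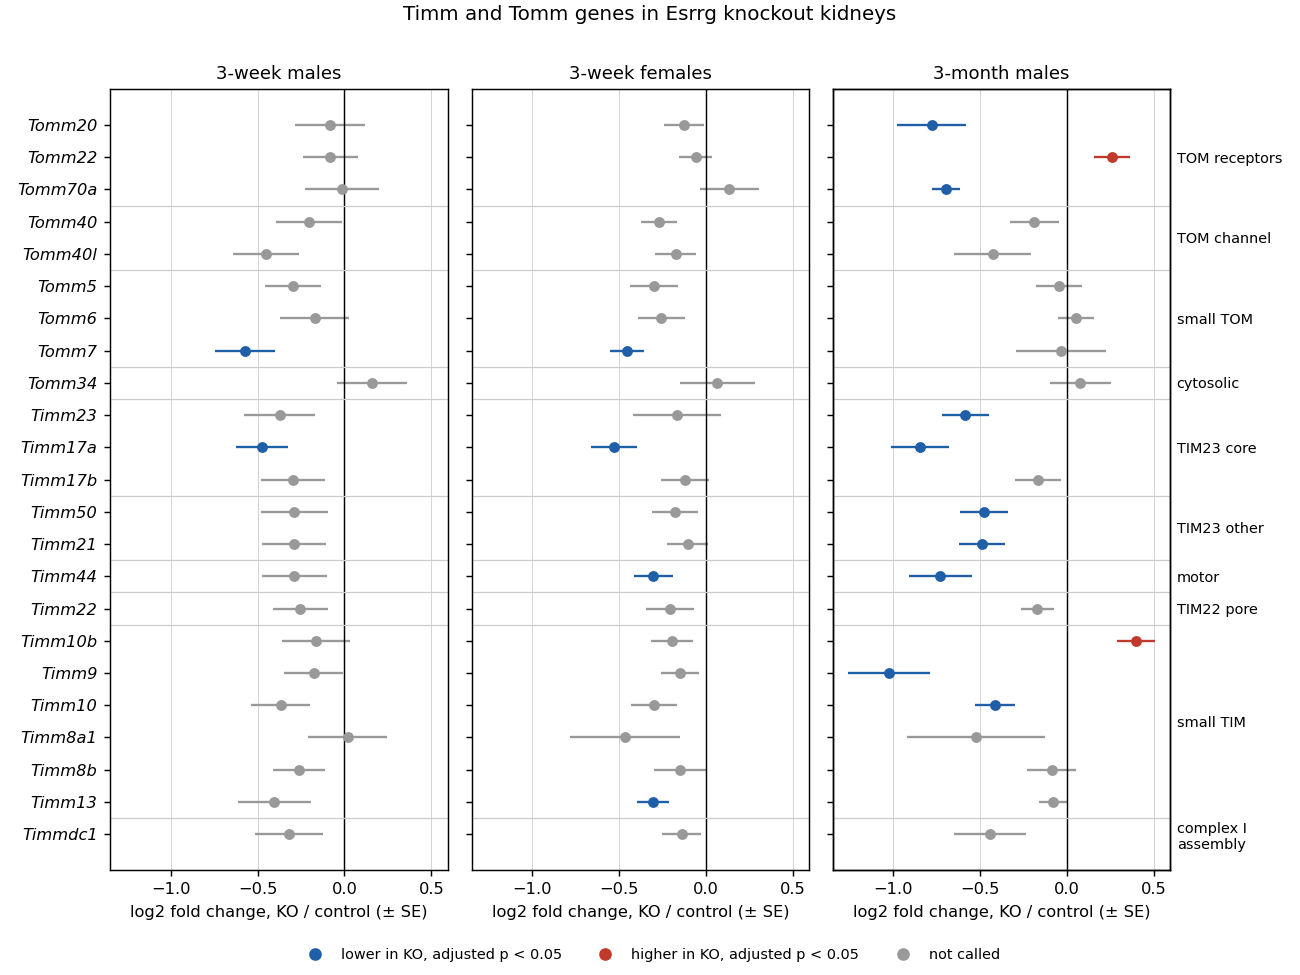
Log2 fold change (knockout over control, ± SE) of the 23 tested Timm and Tomm genes in 3-week males, 3-week females and 3-month males, arranged by function; blue and red points passed adjusted p under 0.05 in the authors' deposited tables. Timm17a is blue in all 3 panels, Tomm7 in both 3-week panels, and Timm10b and Tomm22 are red at 3 months.

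**Figure D2:**
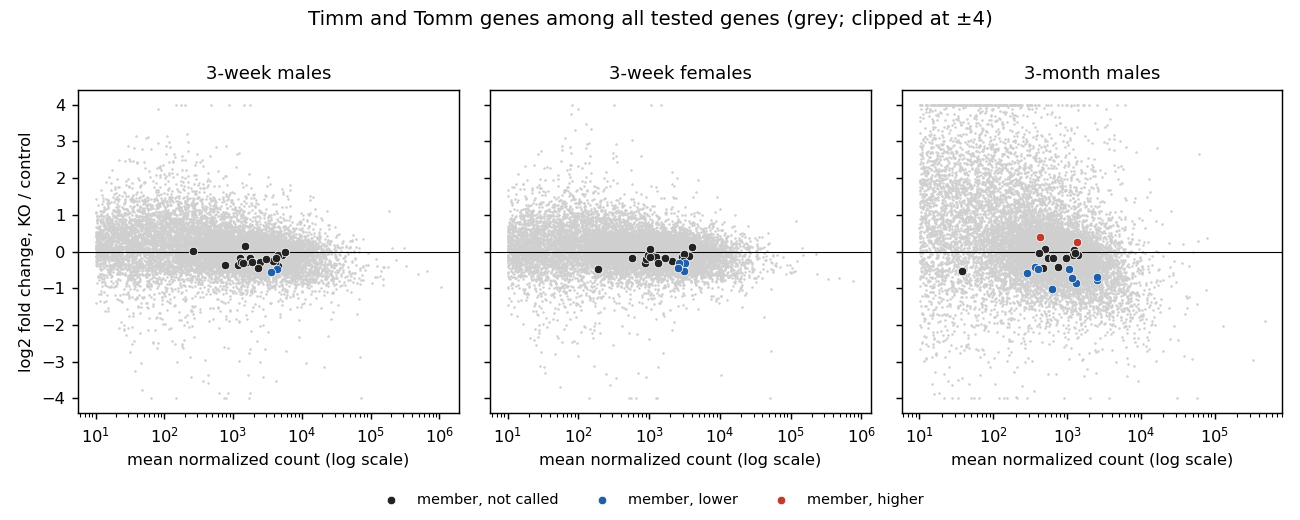
Log2 fold change (knockout over control) against mean normalized count (log scale) for all tested genes in grey, clipped at 4 in either direction, with Timm and Tomm genes in colour. At 3 weeks the members lie close together, 21 of 23 below 0 in each sex, with medians of -0.29 and -0.18, and spread from -1.03 to 0.40 at 3 months, within the wide cloud of that age.

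Genes of the TIM23 presequence translocase included Timm17a, the member called lower at both ages and in both sexes. Timm17a (chromosome 1, 135295213 to 135313778, minus strand, GRCm38), a core subunit of the channel, was lower in knockout kidneys each time, with percent changes of -28.0% in 3-week males, -30.8% in 3-week females and -44.5% in 3-month males derived from the authors' deposited table. The log2 fold changes behind these in the authors' deposited table were -0.47 ± 0.15 (adjusted p = 0.0121, DESeq2), -0.53 ± 0.13 (adjusted p = 0.000748) and -0.85 ± 0.17 (adjusted p = 1.40e-06). Total-count scaling was a single shift of all log2 fold changes that makes the rebuilt total counts of the genotypes equal. Under it Timm17a kept its call in 3-week females, at -0.38. The call of Timm17a was lost in 3-week males, at -0.30 (adjusted p = 0.158, from the DESeq2 estimates), and in 3-month males, at -0.35 (adjusted p = 0.0503). In 3-week males its call also did not hold at an adjusted p under 0.01. Its X-linked paralog Timm17b, the alternative form of the same subunit, passed in no table, with -0.30 ± 0.19, -0.12 ± 0.14 and -0.17 ± 0.13 in the authors' deposited table. The difference between the paralogs was not tested. The third core subunit, Timm23, passed the test at 3 months, lower at -0.59 ± 0.13 (adjusted p = 4.37e-05, DESeq2) in the authors' deposited table, after -0.37 ± 0.20 and -0.17 ± 0.25 in 3-week males and females. For Timm23, 61.2% of the longest coding transcript is identical over stretches of at least 50 bases to transcripts of other annotated genes (Gm10171 and Gm10233 among them), so reads may be shared with these copies.

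The receptor and the motor arm of TIM23 were also lower at 3 months. Timm50, which receives presequences as they leave the outer membrane, and Timm21, which links TIM23 to TOM, were at -0.48 ± 0.14 and -0.49 ± 0.13 in 3-month males in the authors' deposited table (adjusted p = 0.00150 and 0.000572, DESeq2). In 3-week males both stood at -0.29 without passing, and in females at -0.18 and -0.11 in the authors' deposited table. Timm44, the tether that holds the motor chaperone at the channel, was lower in 3-week females and 3-month males, at -0.30 ± 0.11 (adjusted p = 0.0382, DESeq2) and -0.73 ± 0.18 (adjusted p = 0.000181) in the authors' deposited table. The call in 3-week females was lost when centred on genes of like mean count (-0.28, adjusted p = 0.0595, from the DESeq2 estimates), under total-count scaling (-0.15, adjusted p = 0.332) and at an adjusted p under 0.01. The 3-month call of Timm44 was lost under total-count scaling (-0.23, adjusted p = 0.249, from the DESeq2 estimates). Its value in 3-week males was as low as in females, -0.29 ± 0.19, and it did not pass in the authors' deposited table. At 3 months, 5 of the 6 TIM23 genes were thus lower and Timm17b passed no test, where 27.8% of all genes were lower. Scaled to equal total counts none of the 6 was lower and Timm17b was higher at 0.33 (adjusted p = 0.0233, from the DESeq2 estimates), and Timm50 lost its call when centred on genes of like mean count.

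The TOM complex changed unevenly, with small Tomm7 lower at 3 weeks and the receptors in opposite directions at 3 months. Tomm7 (chromosome 5, 23838944 to 23844161, minus strand), a small subunit that modulates the stability of the complex, had the lowest log2 fold change of all members in 3-week males, -0.57 ± 0.17 (adjusted p = 0.00866, DESeq2), and -0.45 ± 0.10 in 3-week females (adjusted p = 8.68e-05) in the authors' deposited table. Under total-count scaling Tomm7 lost its call in 3-week males (-0.39, adjusted p = 0.0958, from the DESeq2 estimates) and kept it in females. In 3-month males the authors' deposited table had it at -0.03 ± 0.26 (adjusted p = 0.920), which is compatible with values from -0.54 to 0.47 at the 95% level. The other small subunits, Tomm5 and Tomm6, passed in no table, at -0.30 and -0.17 in 3-week males, -0.30 and -0.26 in females and -0.05 and 0.05 in 3-month males in the authors' deposited table. The whole of the longest Tomm6 transcript (100%) is also held by transcripts of other annotated genes, Gm21981 on the same strand among them, so its value is uncertain.

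Of the receptors, Tomm20, which binds presequences, and Tomm70a, which binds the precursors of metabolite carriers, were near 0 at 3 weeks. Tomm20 stood at -0.08 ± 0.20 and -0.13 ± 0.12, and Tomm70a at -0.01 ± 0.21 and 0.14 ± 0.17, in 3-week males and females in the authors' deposited table. Both were lower in 3-month knockout males, Tomm20 at -0.78 ± 0.20 (adjusted p = 0.000251, DESeq2) and Tomm70a at -0.70 ± 0.08 (adjusted p = 1.51e-17), in the authors' deposited table. That p for Tomm70a was the smallest of any member in any table, but the size depended on the scaling: the 3-month log2 fold change of Tomm70a was -0.30 when centred on genes of like mean count and -0.20 under total-count scaling, and it passed in both. The central receptor Tomm22, which holds the complex together, was higher at 3 months, at 0.26 ± 0.10 (adjusted p = 0.0219, DESeq2), after -0.08 ± 0.16 and -0.06 ± 0.09 in 3-week males and females in the authors' deposited table. The pore gene Tomm40 passed nowhere, at -0.20 ± 0.19, -0.27 ± 0.10 and -0.19 ± 0.14, and in females it missed the threshold narrowly (adjusted p = 0.0510, DESeq2) in the authors' deposited table. Its relative Tomm40l had -0.45 ± 0.19, -0.17 ± 0.12 and -0.43 ± 0.22 in the authors' deposited table and passed in none. Its exons overlap those of Nr1i3 on the other strand, and the sources do not say whether reads were counted by strand. Tomm34, a cytosolic cochaperone, was slightly above 0 in every table (0.16, 0.07 and 0.08) and passed in none of the authors' deposited tables.

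Among the small TIM chaperones and the carrier translocase, Timm9 and Timm10 were lower and Timm10b higher at 3 months, while all 3 had values below 0 at 3 weeks and passed no test there. Under total-count scaling the 3-month value of Timm10 was above 0 as well (0.079). Timm9 and Timm10 form the main ring-shaped chaperone of the space between the membranes, and Timm10b docks such rings on the TIM22 complex. Timm9 (chromosome 12, 71123173 to 71136684, minus strand) had the largest change of any member, a percent change of -50.9% in 3-month males at -1.03 ± 0.23 (adjusted p = 4.39e-05, DESeq2), after -0.18 ± 0.17 and -0.15 ± 0.11 in 3-week males and females in the authors' deposited table. Timm10 was lower at 3 months at -0.42 ± 0.11 (adjusted p = 0.000779, DESeq2), and its values at 3 weeks, -0.37 ± 0.17 in males and -0.30 ± 0.13 in females, were of like size without passing in the authors' deposited table. Timm10b was higher in 3-month knockout males, at 0.40 ± 0.11 (adjusted p = 0.000680, DESeq2), against -0.17 ± 0.20 and -0.20 ± 0.12 in 3-week males and females in the authors' deposited table. Exons of Timm10b share 792 bases with genes on both strands, Arfip2 among them, so part of its reads may belong to these.

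The second chaperone ring is made of Timm8 and Timm13. Timm13 was called lower in 3-week females, at -0.30 ± 0.09 (adjusted p = 0.00774, DESeq2), with -0.40 ± 0.21 in 3-week males and -0.08 ± 0.08 in 3-month males in the authors' deposited table. The call of Timm13 was lost under total-count scaling (-0.15, adjusted p = 0.218, from the DESeq2 estimates). Timm8b, the member with the full ERR site in its promoter window, was at -0.26 ± 0.15, -0.15 ± 0.15 and -0.09 ± 0.14 in 3-week males, 3-week females and 3-month males and passed in none of the authors' deposited tables. Timm8a1, the X-linked gene whose human counterpart underlies a deafness-dystonia syndrome, had the widest errors, at 0.02 ± 0.23, -0.47 ± 0.32 and -0.53 ± 0.40 in the authors' deposited table, with a mean count of 37.1 at 3 months. Of its longest coding transcript, 43.1% is identical over stretches of at least 50 bases to transcripts of Gm9797, so reads may be shared. The pore gene of the carrier translocase, Timm22, was at -0.25 ± 0.16, -0.20 ± 0.14 and -0.17 ± 0.10 and Timmdc1 at -0.32 ± 0.20, -0.14 ± 0.11 and -0.44 ± 0.21 in the authors' deposited table, and neither passed in any.

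The rest of the import pathway, a list of 25 genes for the motor, the sorting machinery of the outer membrane, the disulfide relay, presequence peptidases and matrix chaperones, was lower more widely at 3 months. In 3-week males 5 of 25 were lower, in 3-week females 6 of 25 and in 3-month males 18 of 24, and none was higher in any table, with median log2 fold changes of -0.31, -0.17 and -0.63. These compare with 8.52%, 10.4% and 27.8% of all genes lower. Lower in all 3 comparisons were Grpel1, the nucleotide exchange factor of the motor, Dnajc15, a motor co-chaperone, Samm50, the channel that inserts barrel proteins into the outer membrane, and Pmpcb, the catalytic subunit of the presequence peptidase. Grpel1 was at -0.59 ± 0.17, -0.53 ± 0.09 and -0.84 ± 0.12, and Pmpcb at -0.68 ± 0.15, -0.48 ± 0.14 and -1.68 ± 0.26, in 3-week males, 3-week females and 3-month males in the authors' deposited table (adjusted p from 3.99e-12 to 0.00753, DESeq2). Hspa9, the motor chaperone itself, was lower at 3 months at -1.25 ± 0.24 (adjusted p = 1.11e-06, DESeq2) and at -0.33 and -0.23 in 3-week males and females, where it did not pass in the authors' deposited table. The matrix chaperonin Hspd1 had -1.79 ± 0.37 at 3 months with the status of an outlier and no p-value in the authors' deposited table.

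**Figure D3:**
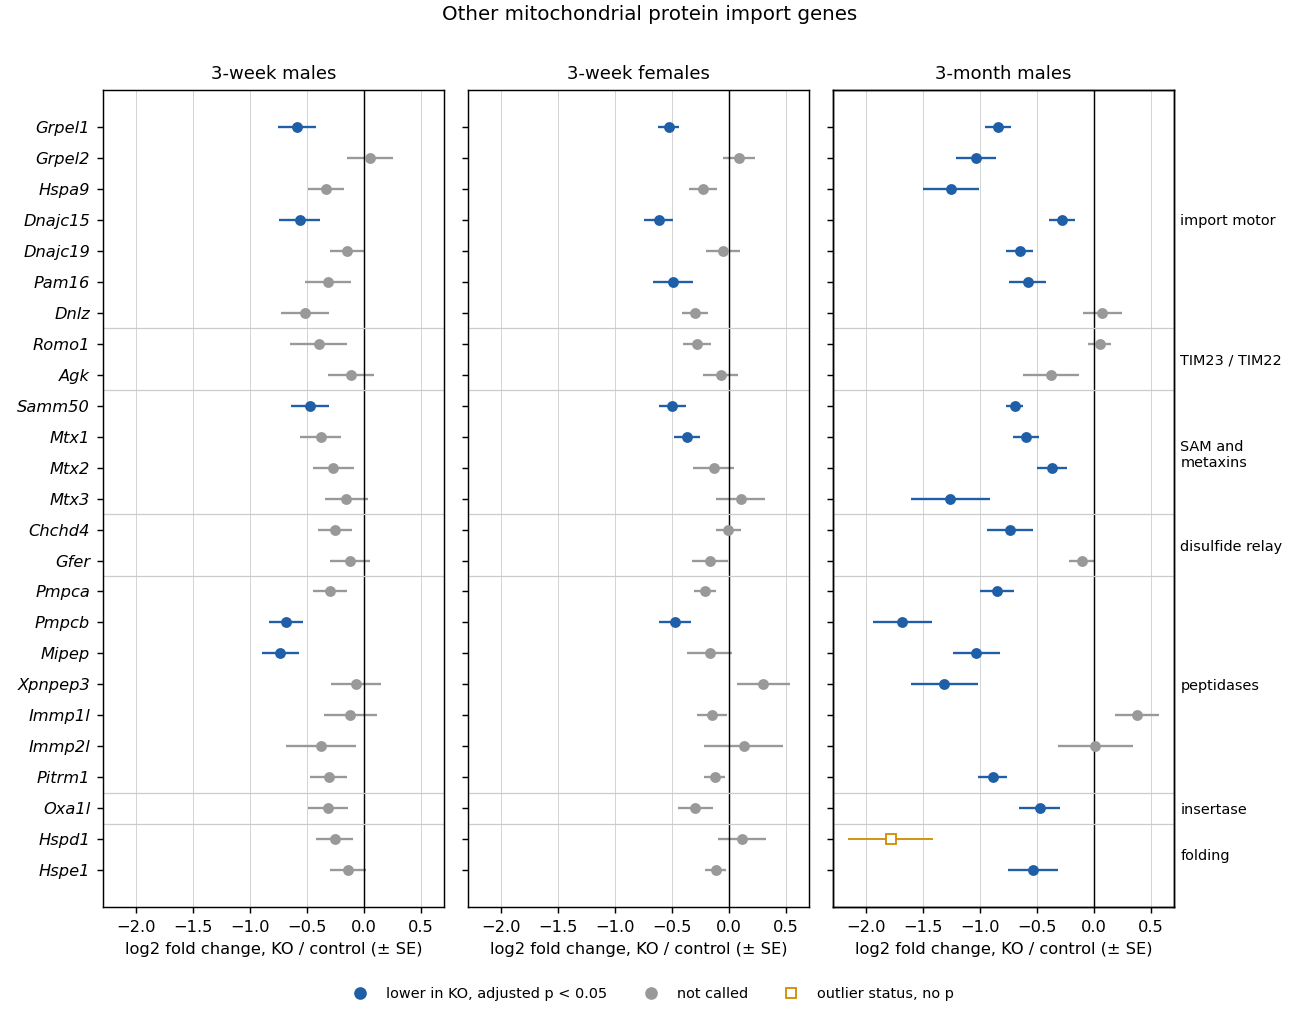
Log2 fold change (knockout over control, ± SE) of 25 other mitochondrial import genes in the 3 comparisons; blue points were lower in knockout kidneys at adjusted p under 0.05, and the open square is Hspd1, without a p-value. At 3 months 18 of 24 tested genes are blue, and Grpel1, Dnajc15, Samm50 and Pmpcb are blue in every panel.

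Complex I and the mitochondrial ribosome are given beside the translocases. Of genes starting with Nduf, most of which encode complex I subunits, 32 of 43 were lower in 3-week males, 35 of 44 in 3-week females and 35 of 43 in 3-month males, with medians of -0.62, -0.53 and -0.63. Of the mitochondrial ribosome (Mrpl and Mrps), 15, 34 and 40 of 76 were lower and 0, 0 and 4 higher, with medians of -0.35, -0.29 and -0.30. Of all genes 8.52%, 10.4% and 27.8% were lower. Under total-count scaling 17, 26 and 13 Nduf genes were lower and 0, 0 and 5 higher. Of the mitochondrial ribosome 3, 14 and 5 were then lower and 0, 0 and 25 higher, with a 3-month median of 0.20. Of all genes 4.78%, 6.07% and 10.6% were then lower, and 55.4% were higher at 3 months. These families are given as a description, and the differences between them were not tested.

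The sexes did not differ detectably at 3 weeks, and 4 members differed between the ages in males. The difference of the log2 fold changes of 2 tables was tested with a 2-sided z test on the DESeq2 estimates and their standard errors, with Benjamini-Hochberg adjustment over all genes tested in both. Between females and males at 3 weeks no gene of 13737 passed (0%), and 237 (1.73%) had an unadjusted p under 0.05, none of them a member. That share lies below the 0.05 that a test with well-sized errors would give without any difference. The test may thus be too strict here, and its empty result does not show that the sexes are alike. For Timm17a the difference was -0.06, with a 95% interval from -0.45 to 0.33, and for Tomm7 it was 0.12, from -0.27 to 0.51, so that differences of up to about these bounds could have been missed. The members' differences ran from -0.48 for Timm8a1 to 0.28 for Tomm40l.

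Between 3-month and 3-week males, 27.7% of 12355 genes differed in effect, 10.9% with a more negative and 16.8% with a more positive value at 3 months, and 37.6% had an unadjusted p under 0.05. Of the 23 members 3 were more negative, namely Timm9 by a difference of -0.85 ± 0.29 (adjusted p = 0.0171, z test on DESeq2 estimates), Tomm20 by -0.70 ± 0.28 (adjusted p = 0.0485) and Tomm70a by -0.68 ± 0.23 (adjusted p = 0.0140), and Timm10b was more positive by 0.56 ± 0.22 (adjusted p = 0.0450). The share of members that differed was below that of all genes. For Timm17a the difference of -0.37 (95% interval -0.81 to 0.06) and for Tomm7 that of 0.54 (-0.08 to 1.15) did not pass, so the loss of the Tomm7 call at 3 months is not shown to be a change with age. The 3-month table holds wider fold changes throughout, with a median absolute value of 0.54 against 0.23 in 3-week males. With both tables brought to one median size, none of the 4 differences passed (adjusted p from 0.464 to 0.649).

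**Figure D4:**
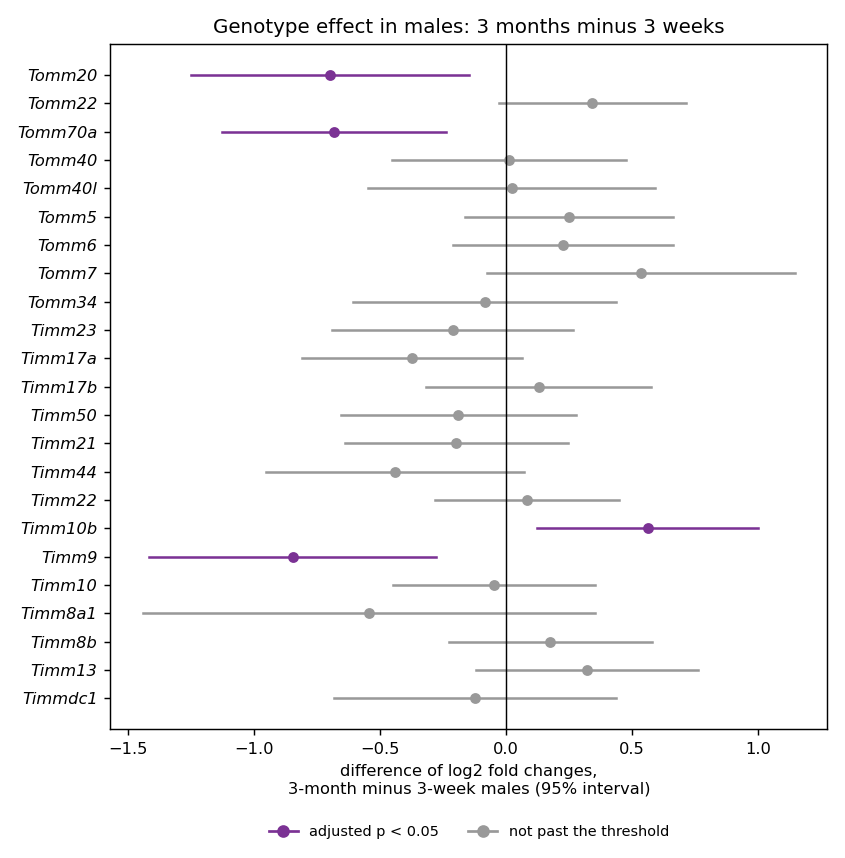
Difference of the log2 fold changes (knockout over control) between 3-month and 3-week males for each tested member, with 95% intervals; purple marks adjusted p under 0.05. Timm9, Tomm20 and Tomm70a lie at -0.85, -0.70 and -0.68 and Timm10b at 0.56, and the intervals of the remaining members include 0.

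How the counts were scaled set the direction of many members at 3 months. The authors' size factors leave the median of all genes near 0. Scaling to equal total counts instead adds 0.18, 0.15 and 0.49 to every log2 fold change in 3-week males, 3-week females and 3-month males. No library was rescaled. The totals of each genotype were rebuilt from the pooled mean counts and the deposited fold changes, and the shift makes them equal. The rebuilding took 2 knockout and 2 control libraries in each 3-week comparison, and 2 and 3 at 3 months, as read from the steps. The labels have 3 and 2, 2 and 2, and 3 and 3. With this shift all genes have a median of 0.51 at 3 months. The members' median at that age becomes 0.08, with 2 lower (Timm9 and Tomm70a) and 10 higher, where 10.6% of all genes are lower and 55.4% higher. Relative to the median of all genes the members' median is -0.43 under either scaling, since the shift is common to all. Centred on the 500 genes nearest in mean count, which allows for the more negative values of abundant genes, 9 members were lower and 3 higher. Of all genes 26.1% were then lower and 27.8% higher. Timm9, Tomm70a, Timm17a, Timm23, Timm44, Timm21 and Timm10 kept their calls as lower in this setting, Timm50 and Tomm20 did not (adjusted p = 0.0531 and 0.101, DESeq2 estimates), and Timm8a1 (-1.34) and Timmdc1 (-0.46) were called lower. Higher in this setting were Timm10b, Tomm22 and Tomm6.

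**Figure D5:**
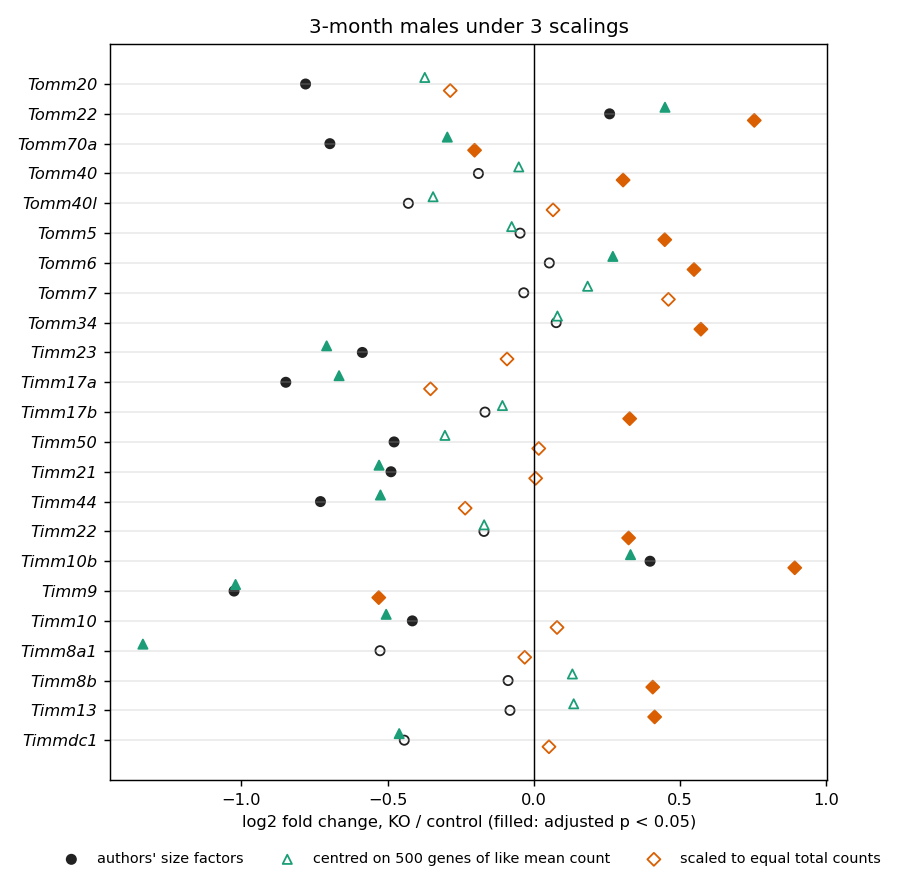
Log2 fold change (knockout over control) of the 23 members in 3-month males under the authors' size factors (circles), centring on 500 genes of like mean count (triangles) and scaling to equal total counts (diamonds); filled symbols passed adjusted p under 0.05. All diamonds lie 0.49 to the right of the circles, Timm9 and Tomm70a stay filled and below 0 in all 3, and Tomm22 and Timm10b stay filled and above 0.

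Markers of kidney and other cell types also differed between the genotypes. Of all tested genes 8.52%, 10.4% and 27.8% were lower in 3-week males, 3-week females and 3-month males, and 8.81%, 8.29% and 29.8% higher. With 57.5% of all genes called at 3 months, counts from the few markers tested there say little by themselves. Of 8 proximal tubule markers, 6 of 8 tested were lower in 3-week males, 2 of 6 in 3-week females and 3 of 3 in 3-month males, where the other 5 were outliers without a p-value and the whole list ran from -3.54 to -0.77 (log2 fold change). Of the immune markers 4 of 7, 4 of 7 and 6 of 6 tested were higher, with medians of 0.95, 0.86 and 2.78 in the same order, and tubular injury markers were higher in 4 of 4 tested in each table. Thick ascending limb markers were lower in 3 of 4 tested in 3-week males and 4 of 5 in 3-week females, and at 3 months all 5 were outliers, from -3.44 to 0.10. Distal tubule markers were lower in 3 of 5, 3 of 4 and 2 of 2 tested, and intercalated cell markers in 2 of 3, 1 of 2 and 0 of 1. The distal list had 0, 1 and 3 outliers in the same order and ran from -4.60 to 0.47 at 3 months. The intercalated list had 2, 3 and 4 outliers and ran from -5.32 to 0.26 at that age. Principal cell markers were higher in 2 of 3, 0 of 1 and 2 of 2 tested, with 1, 3 and 2 outliers and lowest values of 0.49, 0.45 and 0.28. Podocyte markers were lower in 3 of 5, 1 of 5 and 3 of 4, with 1 higher at 3 months, and endothelial markers in 2 of 5, 5 of 5 and 1 of 3, with 1 higher at 3 months. Fibroblast markers were higher in 1 of 1, 3 of 5 and 2 of 2 tested, with 1 lower in 3-week females. Outliers among them numbered 4, 0 and 3. The whole fibroblast list ran from -0.29 to 2.06 in 3-week males and from 0.77 to 4.50 in 3-month males. Muscle markers passed the test in no table. The fat cell list ran from -0.29 to 0.38 in 3-week males, from -0.11 to 0.23 in 3-week females and from 3.03 to 4.96 in 3-month males. Adipoq, which defines fat cells, had mean counts of 818, 316 and 704, and Ucp1, which defines brown fat, had 2375, 882 and 7.95, in the authors' deposited tables in the same order. The list's summed mean counts were 4773, 1782 and 1957, and all but Lep at 3 weeks in males, Lep in females, and Plin1 and Ucp1 at 3 months had outlier status. The part of these cells in the values of the Timm and Tomm genes was not tested.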

How the data were processed

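Polyadenylated RNA of 15 kidneys was sequenced from stranded libraries, per the labels' protocols. The submitters' processing notes name the build mm10 and the tools STAR, HOMER and DESeq2, with no versions. Each deposited comparison gives, by gene and per the file headers, the mean normalized count as a signal, the log2 ratio of the genotypes and its standard error, the p-value before and after adjustment, and a status. Deposited p-values equalled the normal p of fold change over standard error within 1% (100% of genes), and adjusted ones a Benjamini-Hochberg adjustment over genes of status OK within 9e-07. The highest standard errors were 0.44, 0.42 and 1.10, a ceiling that arises where fold changes are moderated; no source says whether they were, so sizes compared across ages carry this limit.

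Groups came from the titles. Symbols turned into dates (27) were left out. A gene was called at adjusted p under 0.05. The planned count model needs values per library and was replaced by the authors' fold changes and p-values, and differences between tables by a z test. The z test was tried on simulated data whose noise was drawn from the deposited standard errors. That simulation cannot show whether these errors hold for the kidneys. Library steps were read from recurring means under 2 (tolerance 2.5e-06, at least 20 genes). Levels were divided by merged exon length of GENCODE M21 (GRCm38, the build mm10). Identical stretches of at least 50 bases were found with blastn 2.17.0, and other steps used Python 3.11.15, pandas 2.3.3 and scipy 1.17.1. Every member is accounted for, with full statistics for those called. The members, lists and motifs were chosen with earlier results of these data known. Alternatives changed the scaling, the threshold, the filter and the membership.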

Additional observations from a re-analysis of the deposited data

Results flagged for a closer look

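The z test on the DESeq2 estimates gave 12 import genes whose genotype effect differed between 3-month and 3-week males. Among the Timm and Tomm genes these were Timm10b (difference of log2 fold changes 0.56), Timm9 (-0.85), Tomm20 (-0.70) and Tomm70a (-0.68). In the rest of the import list they were Xpnpep3, a mitochondrial aminopeptidase (-1.24), Mtx3, a metaxin (-1.10), Grpel2, a nucleotide exchange factor of the motor (-1.09), Pmpcb (-0.998), Hspa9 (-0.92), Pitrm1, which degrades cleaved presequences (-0.58), Pmpca, the second subunit of the presequence peptidase (-0.56), and Dnajc19, a motor co-chaperone (-0.51). Adjusted p ran from 0.000535 for Grpel2 to 0.0485 for Tomm20. The 3-month fold changes were wider throughout, with a median absolute value of 0.54 against 0.23 in 3-week males. With both tables brought to one median size, none of these Timm and Tomm differences passed. No value in that setting is given for the rest of the list. In the rest of the list 8 of 24 tested genes passed as more negative at 3 months and none as more positive, where 10.9% of all genes passed as more negative and 16.8% as more positive.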

How the results depend on the processing

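Under total-count scaling, members called lower numbered 0, 2 and 2 in 3-week males, 3-week females and 3-month males (main values 2, 4 and 9), all called members 0 and 2 in the 3-week tables (2 and 4), and 10 were higher at 3 months (2). The members' median there turned to 0.08. Of all genes 4.78%, 6.07% and 10.6% were lower under this scaling, and 55.4% were higher at 3 months. At adjusted p under 0.01, 1 member was lower in 3-week males and 1 higher at 3 months. The other counts of members under these alternatives, and all under both centrings, under no filter, with a mean count of at least 100 and without Timmdc1, stayed within 1.5 times. Log2 fold changes that changed sign under total-count scaling were Timm10b 0.013, Timm9 0.00027, Tomm20 0.095, Tomm22 0.095, Tomm6 0.0066 and Tomm70a 0.16 in 3-week males, Timm17b 0.029, Timm21 0.045, Timm8b 0.0032, Timm9 0.00077, Timmdc1 0.010, Tomm20 0.024 and Tomm22 0.091 in females, and Timm10 0.079, Timm13 0.41, Timm17b 0.33, Timm21 0.0064, Timm22 0.32, Timm50 0.017, Timm8b 0.41, Timmdc1 0.052, Tomm40 0.31, Tomm40l 0.066, Tomm5 0.45 and Tomm7 0.46 at 3 months. Centred on genes of like mean count, Timm8a1 -0.11 and Tomm70a 0.063 in 3-week males and Timm13 0.14, Timm8b 0.13 and Tomm7 0.18 at 3 months changed sign. Of the 4 differences between ages, 0 passed with fold changes brought to one median size and 0 at adjusted p under 0.01, and 7 members passed with total-count scaling of both tables, Timm10b among them and Timm9, Tomm20 and Tomm70a not. That scaling moves the difference of every gene upward by the same amount. The share of all genes that pass under it is not given, so nothing is read from the 7. In the rest of the import list, total-count scaling left 2, 3 and 10 genes lower (5, 6 and 18) and made 4 of 24 higher at 3 months (0), where 55.4% of all genes were then higher. Centring on genes of like mean count made 1 higher there, beside 27.8% of all genes. Total-count scaling of the differences and all scalings of the rest of the list, complex I and the mitochondrial ribosome were chosen after seeing the data.

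Leaving out replicates and edgeR were not run, since they need values per library. No paired analysis was possible because the titles number the samples without repeats. Depth per kidney is known only approximately, and small changes of low members such as Timm8a1 were not detectable at this depth.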

Other observations

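Timm29, a subunit of the carrier translocase, is listed in the tables under its older symbol 1810026J23Rik (a RefSeq synonym) and so lies outside the rule by which the members were taken. It was looked up after the members' values had been seen. In 3-month knockout males it was lower, at -0.63 ± 0.13 (adjusted p = 1.22e-05, DESeq2), and in 3-week males and females it stood at -0.21 ± 0.16 and -0.15 ± 0.10 without passing, in the authors' deposited table.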
